A study of Mus musculus with 4 samples.

Results

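The 8 genes described here are *Nes*, *Vim*, *Fabp7*, *Slc1a3*, *Prom1*, *Ptprz1*, *Tnc* and *Hopx*, a list of radial glia and neuroepithelial genes taken by name and found by symbol among the 55602 genes of the deposited table. All 8 were among the 19995 genes tested for a genotype difference and among the 10977 autosomal genes tested for an allele difference. The RNA came from cells at day 12 of neural differentiation. They derived from JB1, a male F1 embryonic stem cell (ESC) line from a JF1 female crossed to a C57BL/6 (B6) male. Sample titles call the wild-type and the *Zfp57*-/- cells alike neural precursor cells (NPCs). The paper describes the *Zfp57*-/- cells as partially differentiated and calls them neural precursor-like cells. There were 2 wild-type libraries and 2 *Zfp57*-/- libraries, the latter from a knockout line derived from JB1, so that genotype and ESC line cannot be told apart. Both genotypes had been grown in serum-free medium with CHIR99021, then in DDM medium with 1 µM cyclopamine, a hedgehog pathway inhibitor, from day 2 to day 10. The counts summed to between 7663520 and 10337082 per library, of which between 2837013 and 3826604 could be assigned to a parental allele. The 2 wild-type libraries differed more than the *Zfp57*-/- libraries: 3 of the 8 genes differed by more than 1.5-fold between the wild-type replicates (*Tnc* 2.10-fold, *Slc1a3* 1.81-fold, *Ptprz1* 1.61-fold), against 0 between the mutant replicates.

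Neuroepithelial cells line the wall of the early neural tube and divide at its inner, apical surface. As neurogenesis begins they turn into radial glia, which keep an apical foot and a long basal fibre and act both as progenitors of cortical neurons and as the scaffold along which these migrate. The genes of the list mark different parts of that cell: nestin and vimentin form its intermediate filaments, FABP7 (brain lipid binding protein) and SLC1A3 (the glutamate carrier GLAST) appear as radial glia arise, PROM1 (CD133) sits in apical membrane protrusions, and tenascin C and its receptor phosphatase PTPRZ1 and the cofactor HOPX are known from the outer radial glia of large cortices.

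*Zfp57* itself was measured at 48.5 and 23.8 CPM (normalized counts, scaled to a library total of 1000000 after TMM correction) in wild-type and at 16.9 and 14.7 CPM in *Zfp57*-/- cells. Transcript outside the deletion is still made in the mutant line, so a count over the whole gene does not check the genotype. The level was lower in the mutant by 1.19 ± 0.32 on the log2 scale (SE, n = 2 per genotype, edgeR quasi-likelihood adjusted p = 0.0224).

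Of the 8 genes, 5 were lower in *Zfp57*-/- cells, 1 was higher and 2 did not pass the test (edgeR's quasi-likelihood test, Benjamini-Hochberg adjusted p under 0.05). Over all genes tested 27.6% passed, 14.6% as lower and 13% as higher. *Ptprz1* fell the most, followed by *Fabp7*, *Prom1*, *Slc1a3* and *Nes*, while *Tnc* rose. *Vim* and *Hopx* did not pass. The median log2 fold change of the list was -1.07, against -0.01 over all genes tested. The libraries of the 2 genotypes did not overlap for 7 of the 8 genes, which was also so for 66.3% of all genes tested.

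**Figure D1:**
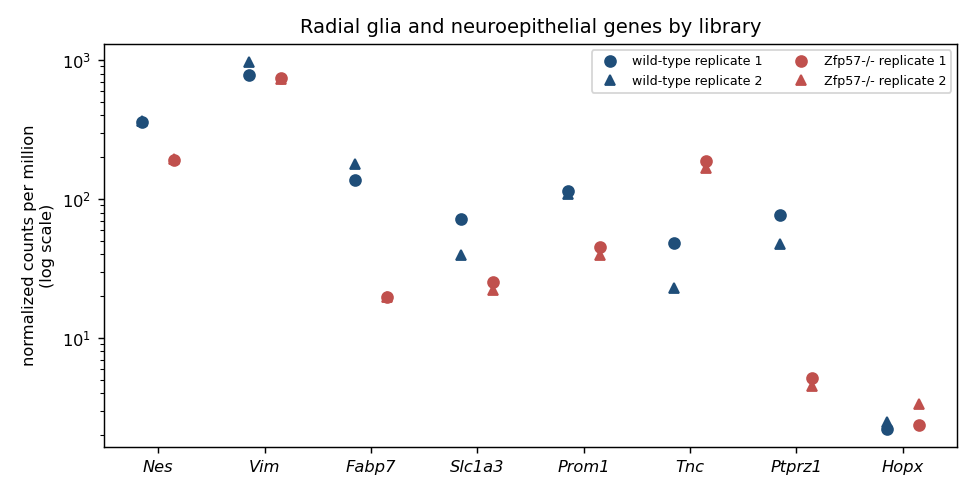
CPM (log axis) of the 8 genes in each library, with wild-type in blue, *Zfp57*-/- in red, and replicates 1 and 2 as circles and triangles. The red points lie below the blue ones for *Nes*, *Vim*, *Fabp7*, *Slc1a3*, *Prom1* and *Ptprz1* and above them for *Tnc*, and the groups overlap for *Hopx*.

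The sequences before the start sites of 4 of these genes are shown because they differ most in behaviour: *Fabp7* and *Ptprz1* had the largest falls, *Tnc* was the gene that rose, and *Nes* had alleles that differed in how they changed (described further on). Each run covers 200 bases, from 250 to 51 bases before the RefSeq start site (GRCm38.p6), and is written in the direction of the gene, so that no transcribed base of that start is included. The *Nes* run is chr3:87970843-87971042 on the plus strand, *Fabp7* is chr10:57784673-57784872 (plus), *Ptprz1* is chr6:22875252-22875451 (plus) and *Tnc* is chr4:64047066-64047265 (minus). Capitals mark matches, on either strand, to 4 short motifs: the POU factor octamer ATGCAAAT, the RBPJ core TGGGAA of Notch signalling, the SOX core ACAAAG and TGCCGC, a form of the hexamer that ZFP57 binds when methylated.
Nes: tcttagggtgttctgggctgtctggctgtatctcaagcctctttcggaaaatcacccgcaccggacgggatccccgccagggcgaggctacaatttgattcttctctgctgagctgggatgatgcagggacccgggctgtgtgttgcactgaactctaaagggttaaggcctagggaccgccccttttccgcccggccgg
Fabp7: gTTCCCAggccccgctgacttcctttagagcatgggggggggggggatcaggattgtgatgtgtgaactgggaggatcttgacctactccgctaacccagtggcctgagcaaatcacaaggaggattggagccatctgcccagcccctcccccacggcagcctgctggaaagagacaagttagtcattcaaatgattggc
Ptprz1: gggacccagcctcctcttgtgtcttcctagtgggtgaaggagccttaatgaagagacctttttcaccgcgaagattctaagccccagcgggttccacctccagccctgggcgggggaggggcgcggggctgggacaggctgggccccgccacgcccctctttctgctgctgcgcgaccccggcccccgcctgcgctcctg
Tnc: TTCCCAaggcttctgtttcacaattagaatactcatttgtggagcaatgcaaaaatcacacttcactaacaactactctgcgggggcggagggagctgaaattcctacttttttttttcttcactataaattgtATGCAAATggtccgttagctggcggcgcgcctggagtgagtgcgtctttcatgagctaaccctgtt
The *Tnc* run held the octamer on its own strand, 116 bases before the start, a match found in 1.32% of the 32851 windows of the same length and position. The RBPJ core, present in 17.9% of all windows, began 250 bases before the start of *Tnc* and 249 bases before that of *Fabp7*, on the opposite strand in both. The *Nes* and *Ptprz1* runs held none of the 4 motifs. RefSeq gave 11 start sites for the 8 genes. The octamer was found in 2 of these 11 windows, both of *Tnc*, which overlap and share the same site. The RBPJ core was found in 4 of the 11, 1 of *Fabp7*, 1 of *Prom1* and 2 of *Tnc*. TGCCGC (6.69% of all windows) was found in 2, 1 of *Slc1a3* and 1 of *Hopx*, and the SOX core (13.6%) in 0. The 4 genes shown were picked by their results and 4 motifs were searched, so these shares are a description and not a test. A match shows only that the letters are present.

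Nestin and vimentin are the intermediate filament proteins of neural progenitors, and nestin assembles only together with a partner such as vimentin. *Nes* (chromosome 3, 87971078 to 87980451, plus strand) was at 356 and 366 CPM in wild-type and at 190 and 195 CPM in *Zfp57*-/- cells. The replicates of each genotype were close to each other and far from those of the other genotype. The difference was -0.91 ± 0.18 (log2, SE, adjusted p = 0.00523), a level 1.88-fold lower in the mutant. This call was lost when either *Zfp57*-/- library was left out, with adjusted p of 0.145 without replicate 1 and 0.120 without replicate 2.

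*Vim* (chromosome 2, 13573927 to 13582826, plus strand) was the most abundant of the 8, at 782 and 964 CPM in wild-type and 738 and 732 CPM in mutant cells. The wild-type replicates spread more than the distance of the lower one to the mutant, and the difference of -0.25 ± 0.20 (log2, SE) did not pass the test (adjusted p = 0.382). Without wild-type replicate 1 it was -0.42 with an adjusted p of 0.00464. Per kilobase of exon, *Nes* stood at 0.337 and 0.281 of the *Vim* level in the wild-type libraries and at 0.191 and 0.197 in the mutant libraries.

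The other intermediate filament genes moved in both directions. Of 13 relatives and partners, 7 were higher, 3 were lower and 3 did not pass. The 3 that fell were neurofilament genes of young neurons: *Nefl* was 5.17-fold lower (225 ± 70.3 against 43.6 ± 0.251 CPM, mean ± SD, n = 2), *Nefm* 5.83-fold and *Ina* 4.16-fold. The simple epithelial keratins rose, *Krt18* from 66.9 ± 8.80 to 515 ± 49.4 CPM and *Krt8* from 151 ± 69.1 to 658 ± 92.6 CPM. *Prph* (peripherin, 8.37-fold) and *Nefh* (10.2-fold), which were at most 2.47 CPM in any wild-type library, also rose, as did *Des* (desmin, 4.94-fold), *Lmna* (lamin A/C, 1.93-fold) and *Plec* (plectin, a linker of filaments to junctions, 1.64-fold). *Synm* (synemin, a partner of vimentin and nestin) was at 12.6 and 9.44 CPM in wild-type against a mutant mean of 18.9 ± 1.64 CPM (adjusted p = 0.0554), and *Lmnb1* at 176 ± 49.1 and 162 ± 8.38 CPM (adjusted p = 0.736).

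*Fabp7* encodes the fatty acid carrier of radial glia, a direct target of Notch signalling. On chromosome 10 (57784881 to 57788450, plus strand), it was counted 1110 and 1863 times in the wild-type libraries and 184 and 192 times in the mutant libraries. These counts were 137 and 178 CPM against 19.7 and 19.6 CPM, and the 2 mutant libraries were nearly equal. The difference of -3.00 ± 0.22 (log2, SE, adjusted p = 1.37e-05) was 8.01-fold. Of its relatives, *Fabp3*, the heart form, rose 3.48-fold from 84.9 ± 50.2 to 296 ± 13.1 CPM (adjusted p = 0.00417), *Fabp5*, the epidermal form, was at 68.3 ± 15.2 and 53.2 ± 0.509 CPM (adjusted p = 0.232), and *Fabp4* had 0 counts in all 4 libraries.

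*Slc1a3* takes up glutamate in radial glia and astrocytes. It lies on chromosome 15 (8634124 to 8710764, minus strand) and was at 71.6 and 39.6 CPM in wild-type and 25.1 and 22.3 CPM in mutant cells. The groups did not overlap, but the 2 wild-type libraries stood further apart than the lower of them stood from the mutant. The difference was -1.23 ± 0.28 (log2, SE, adjusted p = 0.0101), and it ran from -0.77 without wild-type replicate 1 to -1.60 without wild-type replicate 2. *Slc1a2*, which encodes the related carrier GLT-1, fell much further, from 126 ± 28.8 to 2.77 ± 0.0220 CPM (45.0-fold, adjusted p = 2.47e-06). Of the neutral amino acid carriers of the family, *Slc1a4* fell 1.92-fold (106 ± 5.69 to 55.5 ± 0.00389 CPM) and *Slc1a5* rose 1.72-fold (37.4 ± 2.42 to 64.3 ± 8.07 CPM). *Slc1a1* and *Slc1a6* stayed under 2 CPM in every library and did not pass.

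*Prom1* encodes prominin 1, a membrane protein of apical protrusions that is also found outside the nervous system. It was at 114 and 108 CPM in wild-type and at 45.2 and 39.5 CPM in *Zfp57*-/- cells (chromosome 5, 43993620 to 44102032, minus strand). Both groups were tight, and the difference was -1.39 ± 0.19 (log2, SE, adjusted p = 0.000630), or 2.61-fold. Its paralogue *Prom2* was at or below 1.24 CPM in every library.

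*Ptprz1* encodes a receptor phosphatase whose extracellular part binds tenascins, contactin and the growth factors pleiotrophin and midkine. The wild-type libraries held 616 and 495 counts and the mutant libraries 48 and 44 (chromosome 6, 22875502 to 23052916, plus strand). As CPM these were 76.2 and 47.2 against 5.15 and 4.49. The wild-type replicates differed, and both lay far above the mutant. The difference of -3.67 ± 0.30 (log2, SE, adjusted p = 2.24e-05) was 12.8-fold, the largest among the 8. Of 6 genes for its paralogue and binding partners, 4 fell and 2 did not pass. The partners that fell were *Cntn1* (contactin 1, 24.0-fold, adjusted p = 5.48e-05), *Nfasc* (neurofascin, 10.5-fold), *Nrcam* (5.36-fold) and *Ptn* (pleiotrophin, 4.40-fold, 211 ± 51.9 to 48.0 ± 3.22 CPM). *Mdk* (midkine) was at 298 ± 86.8 and 217 ± 12.8 CPM (adjusted p = 0.167). The paralogue *Ptprg* was at 208 ± 31.2 and 139 ± 11.2 CPM (adjusted p = 0.0564).

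*Tnc*, the extracellular matrix glycoprotein tenascin C, was the one gene of the list that rose. The 2 wild-type libraries held 390 and 241 counts and the 2 *Zfp57*-/- libraries 1747 and 1643 (chromosome 4, 63959785 to 64047015, minus strand), that is 48.3 and 23.0 against 187 and 168 CPM. The lowest mutant library was well above the highest wild-type one. The rise was 2.32 ± 0.31 (log2, SE, adjusted p = 0.000524), or 5.01-fold, and it ran from 1.88 without wild-type replicate 2 to 2.92 without wild-type replicate 1. Tenascin C is also made outside the nervous system, by mesenchyme and other embryonic tissues. Among the other tenascins, *Tnr* was at 3.46 and 2.10 CPM in wild-type and had at most 3 counts in each mutant library, at least 8.65-fold lower in the mutant taking 3 counts per library as the floor, and it passed the test (adjusted p = 0.0101). *Tnxb* did not pass and *Tnn* was too low to be tested. The integrin genes for tenascin receptors did not pass: *Itgb1* was at 512 ± 33.5 and 577 ± 6.88 CPM, *Itgav* at 144 ± 20.4 and 187 ± 25.4 CPM and *Itga9* at 41.8 ± 6.57 and 30.5 ± 0.646 CPM.

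*Hopx*, an atypical homeodomain protein that does not bind DNA and acts through partners, was the least abundant of the 8 by CPM in wild-type and in mutant cells. Wild-type libraries held 18 and 26 counts of it and mutant libraries 22 and 33 (chromosome 5, 77086988 to 77115121, minus strand), or 2.23 and 2.48 against 2.36 and 3.37 CPM. The groups overlapped, and with so few counts the difference of 0.28 ± 0.52 (log2, SE, adjusted p = 0.730) could not be resolved. Of its partners, *Hdac2* fell 1.57-fold (305 ± 43.5 to 194 ± 2.60 CPM, adjusted p = 0.0317) and *Srf* was at 50.2 ± 4.68 and 65.4 ± 6.69 CPM (adjusted p = 0.177).

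Compared per kilobase of exon (FPKM computed here from the counts, n = 2), the order in wild-type cells was *Vim* (184 ± 27.2), *Fabp7* (126 ± 22.8), *Nes* (56.3 ± 1.14), *Prom1* (15.4 ± 0.612), *Slc1a3* (6.52 ± 2.66), *Tnc* (4.58 ± 2.30), *Ptprz1* (4.33 ± 1.44) and *Hopx* (1.55 ± 0.118). Neighbours in this order differed by more than the replicates except for *Slc1a3* and *Tnc*, and *Tnc* and *Ptprz1*, whose replicates overlapped. In *Zfp57*-/- cells the order was *Vim* (155 ± 0.870), *Nes* (30.0 ± 0.496), *Tnc* (22.9 ± 1.78), *Fabp7* (15.7 ± 0.0713), *Prom1* (5.90 ± 0.555), *Slc1a3* (2.77 ± 0.235), *Hopx* (1.89 ± 0.471) and *Ptprz1* (0.339 ± 0.0325), and no neighbours overlapped. *Fabp7* thus moved from rank 2 to rank 4, *Tnc* from 6 to 3 and *Ptprz1* from 7 to 8.

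The summed level of the 8 genes was 1587 and 1728 CPM in wild-type and 1213 and 1184 CPM in mutant cells. *Vim* made 49.3% and 55.8% of that sum in wild-type and 60.8% and 61.8% in mutant libraries. Without *Vim* the sums were 805 and 764 against 475 and 452 CPM.

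A list of 17 other genes of neural progenitors was set beside the 8. Of these, 11 were lower, 2 were higher and 4 did not pass, with a median of -1.38 (log2). The Notch effector *Hes5* fell 35.7-fold (41.5 ± 3.23 to 1.15 ± 0.188 CPM, adjusted p = 4.58e-06), *Ednrb*, an endothelin receptor of progenitors and neural crest, 49.9-fold, the RNA-binding protein gene *Msi1* 7.57-fold and *Pax6*, a regulator of cortical radial glia, 8.19-fold (28.0 ± 0.475 to 3.41 ± 0.784 CPM). The other 7 that fell were *Sox1*, *Ttyh1*, *Gli3*, *Cdh2*, *Fgfr3*, *Sox3* and *Nr2e1*. *Nr2e1* had 0 counts in both mutant libraries and was at least 3.89-fold lower taking 3 counts per library as the floor. *Glul*, which makes glutamine from glutamate, rose 2.08-fold (238 ± 82.6 to 495 ± 75.9 CPM, adjusted p = 0.0132) and *Mfge8*, a secreted bridging protein for phagocytosis, 1.69-fold (adjusted p = 0.0331). On the *Actb* scale neither passed (0.49 and 0.14 on the log2 scale, adjusted p = 0.577 and 0.886), nor did either without *Zfp57*-/- replicate 2 (adjusted p = 0.0960 and 0.347), and *Mfge8* did not pass without *Zfp57*-/- replicate 1 (adjusted p = 0.0860). *Sox2*, which is shared by pluripotent and neural cells, was at 111 ± 10.8 and 156 ± 16.8 CPM (adjusted p = 0.0882), *Hes1* at 81.5 ± 12.0 and 85.3 ± 11.5 CPM (adjusted p = 0.844), *Sox9* at 25.4 ± 6.62 and 20.8 ± 0.869 CPM (adjusted p = 0.440) and *Sox21* at 48.7 ± 10.8 and 31.6 ± 6.97 CPM (adjusted p = 0.0808).

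**Figure D2:**
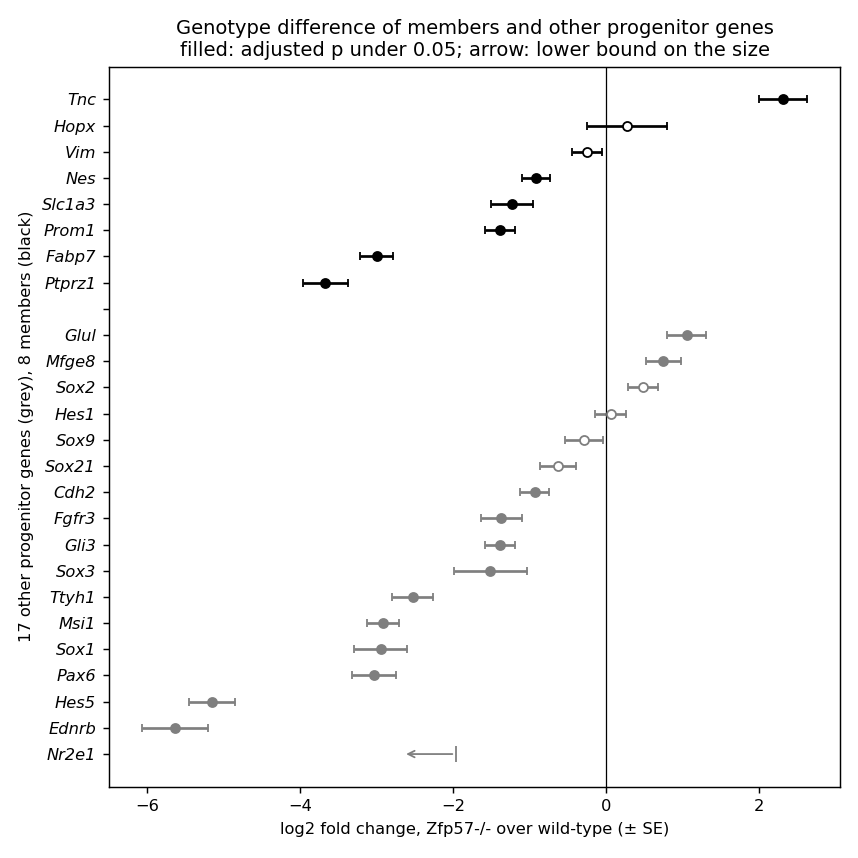
Log2 fold change, *Zfp57*-/- over wild-type, with its SE (edgeR, n = 2 per genotype) for the 8 genes (black) and 17 other progenitor genes (grey), where filled points have an adjusted p under 0.05. The arrow for *Nr2e1* starts at its bound. In both sets most points lie left of 0, with *Tnc*, *Glul* and *Mfge8* as the filled points on the right.

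Markers of other cell types were set beside these genes, and some of the sets differed between genotypes while others were mixed. Summed over 9 pluripotency markers, wild-type libraries had 4.95 and 8.59 CPM and *Zfp57*-/- libraries 1366 and 1198 CPM, with 9 of 9 higher. *Nanog*, a defining marker, had 0 counts in both wild-type libraries and was at 96.9 and 95.8 CPM in the mutant libraries. *Pou5f1* was at 0.124 and 0.572 CPM in wild-type and at 295 and 233 CPM in the mutant libraries. The paper reports that both genes fell during differentiation in both genotypes by quantitative RT-PCR, and Pou5f1 in all cells by immunofluorescence. Its reference is undifferentiated cells, which are not among the 4 libraries, so that fall could not be checked here. The sum of 9 neuronal markers was 1584 and 2028 against 230 and 184 CPM, with 8 of 9 lower. The sum of 6 simple epithelial markers was 309 and 459 against 1609 and 1904 CPM (6 of 6 higher) and that of 6 heart muscle markers 37.3 and 15.4 against 172 and 171 CPM (3 of 6 higher). Mesenchymal markers summed to 1245, 802, 1247 and 1236 CPM in the 4 libraries in order (1 of 9 higher and 3 lower), primitive and visceral endoderm markers to 434, 679, 709 and 968 CPM (1 of 9 higher and 1 lower), endothelial markers to 91.2, 112, 109 and 130 CPM (2 of 5 higher and 1 lower), neural crest markers to 41.2, 53.7, 27.9 and 29.3 CPM (1 of 5 higher and 3 lower) and intermediate progenitor markers to 68.1, 73.6, 40.9 and 49.3 CPM (1 of 5 higher and 3 lower). Most of the last sum in the mutant was *Eomes*, a T-box gene also known from early mesendoderm, which rose from 1.61 and 0.668 to 35.3 and 44.2 CPM. Without it the other 4 markers summed to 66.5 and 72.9 CPM in wild-type and to 5.58 and 5.11 CPM in mutant cells. Astrocyte and ependymal markers were low, at 18.2, 9.16, 13.6 and 15.6 CPM (1 of 5 higher and 1 lower), and *Gfap* was at or below 1.50 CPM in every library. In bulk RNA, fewer cells of a type and less RNA per cell cannot be told apart, and the part of these other cells in the differences of the 8 genes was not tested.

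For each of the 8 genes the 2 genes with the most similar profile over the 4 libraries were sought among 10449 genes with a mean log2 CPM of at least 3, by the root-mean-square (RMS) difference of the log2 CPM after centring each gene. With 4 libraries this is a description only. *Nes* was nearest to *Adgrl1* (RMS 0.011) and *Nsmf* (0.018), *Vim* to *Ptpn9* (0.008) and *Tmpo* (0.013), and *Prom1* to *Zfp113* (0.011) and *Zfp629* (0.031). *Fabp7* was nearest to *Hspa12a* (0.063) and *Neurod4* (0.084), *Slc1a3* to *Vcan* (0.035) and *Uggt2* (0.041), *Ptprz1* to *Thsd7a* (0.084) and *Unc5c* (0.12), and *Tnc* to *Gm20939* (0.15) and *Mcam* (0.15). *Hopx* was below the minimum level.

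The allele-specific counts asked whether the 8 genes changed on both parental alleles. The measure is the share of JF1 reads, JF1/(JF1 + B6), where JF1 is the maternal and B6 the paternal allele, and strain and parent of origin cannot be told apart in this one direction of the cross. The median share of the 10091 autosomal genes that reached 10 allelic reads in each library was 0.499 for wild-type and 0.489 for *Zfp57*-/-. The change of the JF1 to B6 ratio between genotypes passed the test for 2 of the 8 genes, *Nes* and *Fabp7*, against 14.5% of all genes tested (4.18% toward JF1 and 10.3% toward B6).

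In wild-type cells *Nes* was read mostly from the JF1 allele, at shares of 0.747 and 0.785 (4232 allelic reads, pooled 95% Wilson interval 0.756 to 0.781). Such an interval covers counting error only and not the spread of replicates, and both wild-type shares lay outside it. In *Zfp57*-/- cells the alleles were near equal, at 0.494 and 0.493 (2613 reads, interval 0.474 to 0.512). The JF1 to B6 ratio fell by 1.76 ± 0.11 on the log2 scale (SE, edgeR adjusted p = 4.19e-26). A contrast as low or lower was found in 766 of the 10977 genes. Scaled as CPM by the bulk library sizes, the JF1 allele had 167 and 181 reads in wild-type and 67.6 and 67.3 in mutant libraries, and the B6 allele had 56.7 and 49.7 in wild-type and 69.3 and 69.2 in mutant libraries. The JF1 allele fell by 1.37 ± 0.17 (log2, SE, adjusted p = 0.000232). The B6 allele was higher in both mutant libraries than in both wild-type libraries, but its difference of 0.38 ± 0.17 did not pass (adjusted p = 0.114). Over all genes 29.3% passed on the JF1 allele (18.3% as lower and 11% as higher) and 32.6% on the B6 allele (15.9% as lower and 16.7% as higher). Among the allelic reads, the fall of *Nes* was thus found on the JF1 allele.

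*Fabp7* went the other way. Its JF1 share was 0.413 and 0.452 in wild-type (920 reads, interval 0.405 to 0.469) and 0.641 and 0.793 in mutant cells (146 reads, interval 0.649 to 0.792). The mutant replicates differed, on 64 and 82 reads. Both lay outside their pooled interval, and both lay above the wild-type replicates. The contrast was 1.77 ± 0.31 (log2, SE, adjusted p = 2.04e-06), and 228 of the 10977 genes had one as high or higher. It was 1.20 without *Zfp57*-/- replicate 2 and 2.30 without replicate 1, and passed in each case. Both alleles fell, JF1 from 17.9 and 24.5 to 4.40 and 6.64 CPM (-1.94 ± 0.27, adjusted p = 0.000441) and B6 from 25.5 and 29.8 to 2.47 and 1.74 (-3.71 ± 0.31, adjusted p = 6.29e-06). The B6 allele, the stronger one in wild-type, was the weaker one in the mutant. Only between 30.5% and 42.7% of the bulk counts of this short transcript could be assigned to an allele.

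**Figure D3:**
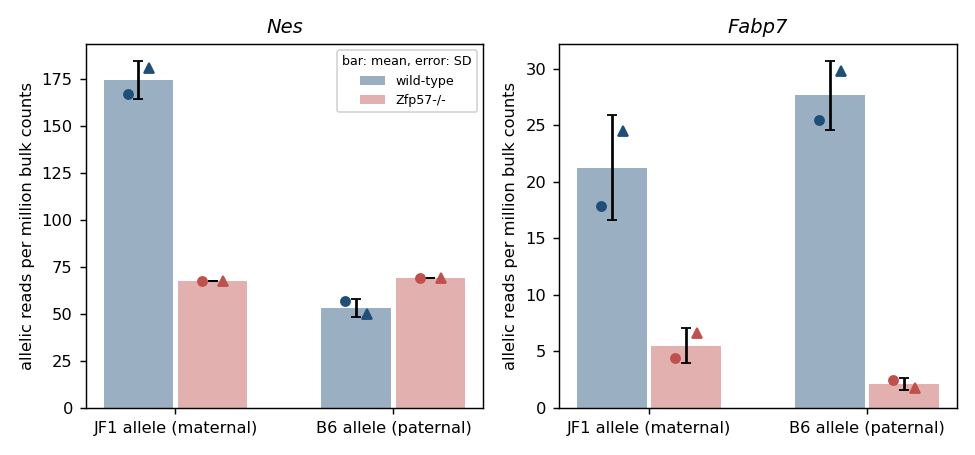
Allelic reads of *Nes* and *Fabp7* on each allele, scaled as CPM by the bulk library sizes, with bars as means of 2 libraries, error bars as SD and points as replicates 1 (circle) and 2 (triangle). For *Nes* the wild-type JF1 bar stands alone above 3 bars of similar height, and for *Fabp7* both mutant bars are low and the B6 one is the lower.

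For the other 6 genes the contrast did not pass, which does not show that their alleles changed alike. *Ptprz1* had shares of 0.532 and 0.534 in wild-type and 0.471 and 0.606 in mutant cells, the latter on only 34 and 33 reads, and changed by -3.30 ± 0.34 on the JF1 allele and by -3.32 ± 0.35 on the B6 allele (log2, SE). The contrast of 0.02 ± 0.38 leaves room for an allele difference of moderate size. *Prom1* favoured JF1 in both genotypes, at 0.577 and 0.573 and at 0.556 and 0.644, with adjusted p of 0.00738 and 0.0140 for the allele difference within wild-type and within mutant. Its genotype difference was -1.46 ± 0.21 on JF1 and -1.59 ± 0.22 on B6. Over all genes 23.6% passed an allele difference in wild-type (14.3% toward JF1 and 9.26% toward B6) and 21.8% in mutant cells (9.36% toward JF1 and 12.5% toward B6).

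*Tnc* favoured the B6 allele in both genotypes, with JF1 shares of 0.310 and 0.357 in wild-type and 0.403 and 0.407 in mutant cells (adjusted p = 1.75e-06 and 1.17e-05 for the allele difference within each). It rose on both alleles, by 2.54 ± 0.36 on JF1 and 2.04 ± 0.34 on B6, and the contrast of 0.47 ± 0.21 did not pass (adjusted p = 0.140). *Slc1a3* had shares of 0.531 and 0.480 in wild-type and 0.452 and 0.310 in mutant cells. Its JF1 allele fell, with a difference of -1.50 ± 0.42 (adjusted p = 0.0212) and its B6 allele changed by -0.78 ± 0.41 (adjusted p = 0.171). The contrast between genotypes did not pass (-0.72 ± 0.27, adjusted p = 0.0585), so a difference between its alleles was not shown. Without *Zfp57*-/- replicate 1 the contrast was -1.21 with an adjusted p of 0.00236. *Vim* had the most reads and the narrowest shares, 0.499 and 0.515 in wild-type and 0.481 and 0.469 in mutant cells, with a contrast of -0.18 ± 0.07 (adjusted p = 0.0622) that passed without wild-type replicate 1 (-0.23, adjusted p = 0.0447). *Hopx* had between 17 and 28 allelic reads per library, with shares from 0.250 to 0.478 and no contrast detectable at this depth (-0.47 ± 0.83).

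**Figure D4:**
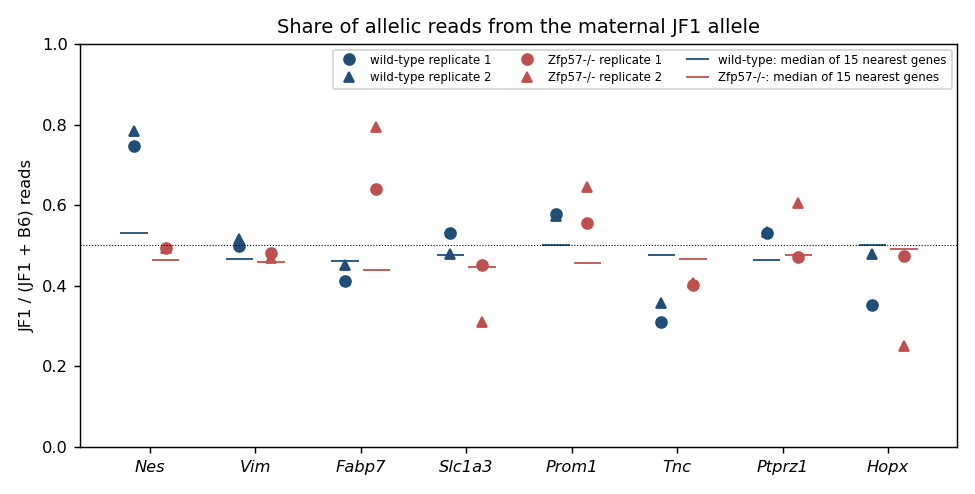
Share of allelic reads from the maternal JF1 allele for the 8 genes in each library (blue wild-type, red *Zfp57*-/-, circles and triangles for replicates 1 and 2), with short lines at the median share of the 15 nearest genes. *Nes* in wild-type and *Fabp7* in mutant cells stand farthest above their lines. *Tnc* and, on few reads, *Hopx* lie below their lines in both genotypes.

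The median share of the 15 nearest genes that had 10 or more allelic reads in each library served as the local reference. It lay between 0.463 and 0.532 in wild-type and between 0.438 and 0.492 in mutant cells for all 8 genes, and the medians of their 7 chromosomes lay between 0.477 and 0.508 in both genotypes. For *Fabp7* the neighbours were at 0.463 in wild-type and 0.438 in mutant cells, so that its rise was not seen in their median. For *Nes* the neighbours were at 0.532 and 0.464, and they differed by side. The 6 nearest genes before *Nes*, reaching 298 kb away, had a median share of 0.648 in wild-type and 0.408 in mutant cells. All 6 were lower in the mutant, and 5 of the 6 passed the contrast by edgeR and 4 by DESeq2. The 9 nearest genes after *Nes*, reaching 442 kb away, had medians of 0.529 and 0.521, and 0 of the 9 passed by edgeR or by DESeq2, with 1 at an unadjusted p under 0.05. Of the genes before *Nes*, 2 are named after their values were seen: *Mrpl24*, a mitochondrial ribosomal protein gene 54.2 kb away, went from 0.926 to 0.399 and *Crabp2*, a retinoic acid binding protein gene 24.7 kb away, from 0.696 to 0.516.

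**Figure D5:**
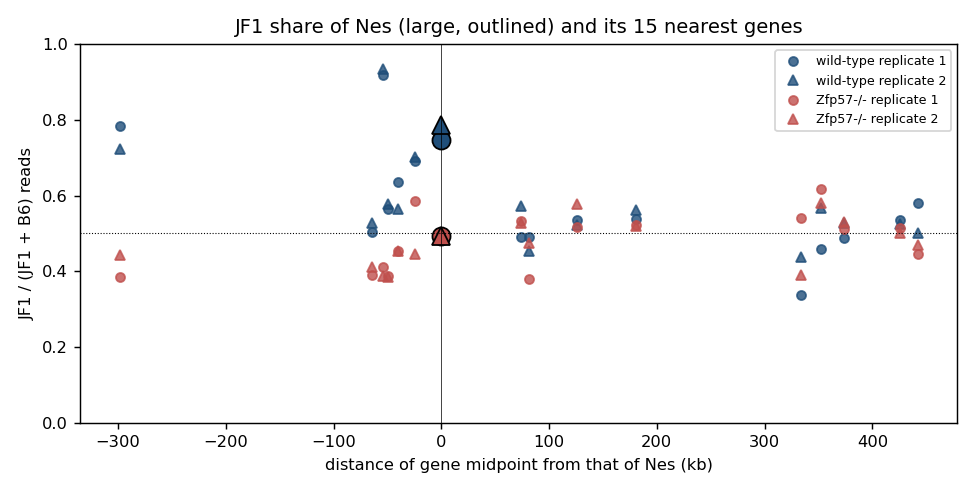
JF1 share of *Nes* (large outlined points at 0) and of its 15 nearest genes against the distance between gene midpoints in kb, by library (blue wild-type, red *Zfp57*-/-). To the left of *Nes* the blue points lie above the red ones for all 6 genes, and to the right the colours are mixed.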

How the data were processed

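Stranded libraries from ribosomal-depleted total RNA of 4 cultures were sequenced as read pairs of 125 bases. Per the labels and the file headers, the authors used Trimmomatic 0.36 for trimming and STAR 2.5.4a for alignment to GRCm38, and deposited raw counts of fragments per GENCODE vM20 gene from featureCounts (Subread 1.6.0), using the strand. The authors split reads at strain SNPs with SNPsplit for the allele counts. Neither table was normalized. Exon lengths for FPKM are those deposited.

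Genes with more than 8 counts over the 4 libraries were compared with edgeR 4.0.16 (robust quasi-likelihood, TMM) in R 4.3.3. Allele counts of autosomal genes that reached 10 after normalization in each wild-type library were fitted with a term per library and a JF1 term per genotype. A second fit compared each allele between genotypes. P-values were adjusted over all genes tested. Each SE was derived from the test, as the absolute log2 difference divided by the square root of the quasi-likelihood F statistic. Labels do not say that the replicates, called biological by the study, pair across genotypes. The tests were checked on simulated data. Intervals cover counting error only.

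The 8 genes and all lists were chosen with earlier results of these data known. Named besides the 8 were, per list of progenitor genes or relatives, up to 4 genes in each direction with the smallest adjusted p, relatives at 10 CPM or more, and the 2 most similar genes. Further genes of these lists, such as *Des*, were named outside this rule. So were, of the markers, *Nanog*, *Pou5f1*, *Eomes* and *Gfap*. Gene symbols came from the reference annotation, and start sites from RefSeq. Alternatives were DESeq2 1.42.0, other scalings (median-ratio, upper-quartile, *Actb*), filters and read minimums, a threshold of 0.01, no robust estimation, a replicate block, and each library left out.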

Additional observations from a re-analysis of the deposited data

Results flagged for a closer look

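The change of the JF1 share between genotypes passed edgeR's contrast for 2 of the 8 genes. Among the other progenitor genes and relatives at 10 CPM or more it passed for 9 of 37 (24.3%). Of all genes tested 14.5% passed, but without that minimum, so the 2 shares are not like for like. Differences are *Zfp57*-/- minus wild-type shares. *Nes* changed by -0.273 and *Fabp7* by 0.284. Of the other progenitor genes, *Mfge8* changed by -0.311 (0.756 and 0.818 to 0.461 and 0.491) and *Sox9* by 0.177 (0.473 and 0.482 to 0.663 and 0.646). Of the filament genes, *Ina* changed by -0.477, *Krt18* by -0.375 and *Krt8* by -0.275, and the keratin genes lie close together on chromosome 15. *Fabp5*, a paralogue of *Fabp7*, changed by 0.162 and *Ptn*, a ligand of PTPRZ1, by 0.155, both in the direction of *Fabp7*.

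*Ptprg*, the paralogue of *Ptprz1*, changed by -0.521. It had 0 B6 reads of 754 in each wild-type library, which allows a B6 share of up to 0.398%, and 246 of 456 and 295 of 586 in the mutant libraries. Its 15 nearest genes had a median share of 0.691 in wild-type and 0.456 in mutant cells, against 0.513 and 0.482 for chromosome 14. *Nfasc* changed by 0.205, and its 15 nearest genes went from 0.484 to 0.692 and chromosome 1 as a whole from 0.490 to 0.620. The medians of the 15 nearest genes also moved in the direction of the gene, by less, for *Ina* (0.546 to 0.498, 13 of 15 lower), *Mfge8* (0.548 to 0.499, 12 of 15), *Krt8* (0.537 to 0.459, 12 of 15), *Krt18* (0.537 to 0.464, 12 of 15), *Sox9* (0.457 to 0.486, 3 of 15 lower) and *Ptn* (0.488 to 0.492, 6 of 15 lower), and against it for *Fabp5* (0.490 to 0.479). The part of the region in each value was not tested.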

How the results depend on the processing

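Over 25 results, 263 of 284 alternative values kept their direction and their side of the threshold (counts: within 1.5 times). *Fabp7*, *Prom1*, *Ptprz1* and *Tnc* kept their bulk calls throughout, and between 4 and 6 of the 8 genes were called lower. Genes called numbered 5522, against 4912 by DESeq2, 3480 on the *Actb* scale and 2902 at an adjusted p of 0.01, where *Slc1a3* (-1.23) also missed and 0 of the other progenitor genes were called higher, as on the *Actb* scale. The *Actb* scale moved the median of all genes to -0.68 and the share of higher calls from 47.2% to 14%. *Hopx* then reversed to -0.36, still above that median, and 4 rather than 9 relatives were higher.

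Leaving out a library, with the lone replicate assumed to vary like the other genotype, gave 2831 (without *Zfp57*-/- replicate 1), 2987 (without *Zfp57*-/- replicate 2), 8051 (without wild-type replicate 1) and 9947 genes (without wild-type replicate 2), 0 to 3 other progenitor genes higher, *Nes* between -0.96 and -0.88 and *Vim* between -0.42 and -0.092. In the allele contrast, called genes numbered 1588, against 834 by DESeq2. *Nes* and *Fabp7* passed under every alternative. Without one library *Vim* ran from -0.23 to -0.14 and *Slc1a3* from -1.21 to -0.33, and *Prom1* (-0.11 to 0.42), *Ptprz1* (-0.36 to 0.43) and *Hopx* (-1.13 to 0.29), none of them called, changed sign without *Zfp57*-/- replicate 2. The causes were not tested.

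Deviations of same-numbered libraries correlated at r = 0.189 over 13224 genes, which with 2 pairs does not show pairing. With the replicate block 6984 genes were called in bulk, and no call of the 8 genes changed. The allele contrasts of *Ptprz1* and *Hopx* rest on few reads and bound only large differences.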
